A study of Homo sapiens with 7 samples.

Results

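The ARID5B locus of LS174T cells, an established human colorectal carcinoma line, held 17 of the 7568 GATA6 peaks in the list. Its members were chosen by the position of the peak summit, which had to lie on chromosome 10 between 63.3 and 64.2 Mb of hg19. Within this window of 0.9 Mb, the ARID5B gene was taken as 63.661 to 63.857 Mb on the plus strand, bounds given to the nearest kb. Of the 17 peaks, 9 lay inside the gene and 8 outside it.

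The study used chromatin immunoprecipitation followed by sequencing (ChIP-seq), which recovers the DNA fragments cross-linked to a protein. There were 3 libraries precipitated with an antibody against human GATA6, 1 library each for the histone marks H3K27ac, H3K4me3 and H3K4me1, and 1 input library made without antibody. All were made from the same line, grown with 10% serum and cross-linked with 1% formaldehyde for 15 min, and the labels name no genotype or treatment that would set groups apart. The file used here was 1 list of GATA6 peaks with no value per library, and the other libraries were not analysed here. No value below therefore has a spread between replicates, the depth of the libraries is unknown, and no test was made. The window was proposed with the list in view, so its number of peaks is a description.

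GATA6 binds DNA through its zinc fingers at the letters GATA and controls genes in the intestine, pancreas, lung and heart. ARID5B belongs to a family of proteins with an AT-rich interaction domain, which contacts AT-rich DNA, and it works with the histone demethylase PHF2 at target genes. In mice it is known for roles in fat and cartilage development. Transcription factors often bind within introns and far from a gene's start as well as at promoters. In the RefSeq gene order, the nearest protein-coding neighbour of ARID5B is CABCOCO1 on the side of the gene start, while RTKN2 and then ZNF365 follow on the side of the gene end. The order comes from another build, so the neighbours carry no positions here, and which exons or introns the peaks touch was not analysed here.

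RefSeq gives ARID5B a pair of transcript starts, and the 250 bases before each are shown. Both are on the plus strand of GRCh38.p14, at chr10:61901449-61901698 for the first start and chr10:62049107-62049356 for the second, and these positions are not to be set against those of hg19. Within GRCh38.p14 the second start lies 147.7 kb past the first. In hg19 the list has its nearest peaks 51.2 kb after and 63.9 kb before the gene start, while the last peak inside the gene lay 144.8 kb past it, a distance close to that of the second start. Positions were not converted between builds, so how near that peak lies to the second start was not measured. Capitals would mark the letters GATA on either strand, and neither sequence has them.
First start: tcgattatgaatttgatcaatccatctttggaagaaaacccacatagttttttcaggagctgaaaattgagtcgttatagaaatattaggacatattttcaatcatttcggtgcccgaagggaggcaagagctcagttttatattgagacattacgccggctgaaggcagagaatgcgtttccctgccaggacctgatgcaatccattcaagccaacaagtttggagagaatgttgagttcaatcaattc
Second start: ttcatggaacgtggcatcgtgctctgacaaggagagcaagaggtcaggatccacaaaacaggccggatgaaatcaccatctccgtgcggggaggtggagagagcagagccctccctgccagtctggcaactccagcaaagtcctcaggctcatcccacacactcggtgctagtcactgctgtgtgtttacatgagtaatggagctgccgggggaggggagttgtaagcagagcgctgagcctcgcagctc
The letters GATA or their reverse complement TATC occurred in 45.6% of the 35116 RefSeq promoter stretches of 250 bases. The first start had a GC content of 40.4% and 7 CpG sites, and the second 57.6% and 9, beside medians of 58% and 11 over the same stretches. These counts describe the letters in the windows only. The sequence under the peaks was not analysed here.

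GATA6 peaks inside ARID5B filled the middle of the gene and left both ends empty. The first summit lay 51.2 kb past the gene start, at 26.1% of the gene's length. The last lay 144.8 kb past it, at 73.9% of the length and 51.2 kb before the gene end. Outside the gene all 8 peaks lay on the side of the gene start, from 288.6 to 63.9 kb before it. The 343 kb between the gene end and the end of the window held 0 peaks, which allows up to 8.75 peaks per Mb there if a limit of 3 counts is taken.

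The gene was the densest of these stretches. Its 9 peaks gave 45.9 per Mb (95% Poisson interval 21.0 to 87.2), against 11.4 per Mb (4.91 to 22.4) over the whole window outside it. The ratio was 4.04. Against the stretch before the gene start alone, which held 22.2 peaks per Mb (9.57 to 43.7), the ratio was 2.07. The interval of the gene overlapped both of these, and lay above that of the stretch after the gene end, 0 to 10.8. The gene took 21.8% of the window and held 52.9% of its peaks (exact Clopper-Pearson interval 27.8 to 77.0%). From first to last summit, the peaks inside spanned 93.6 kb. Intervals cover counting error only, and neighbouring peaks are not independent.

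**Figure D1:**
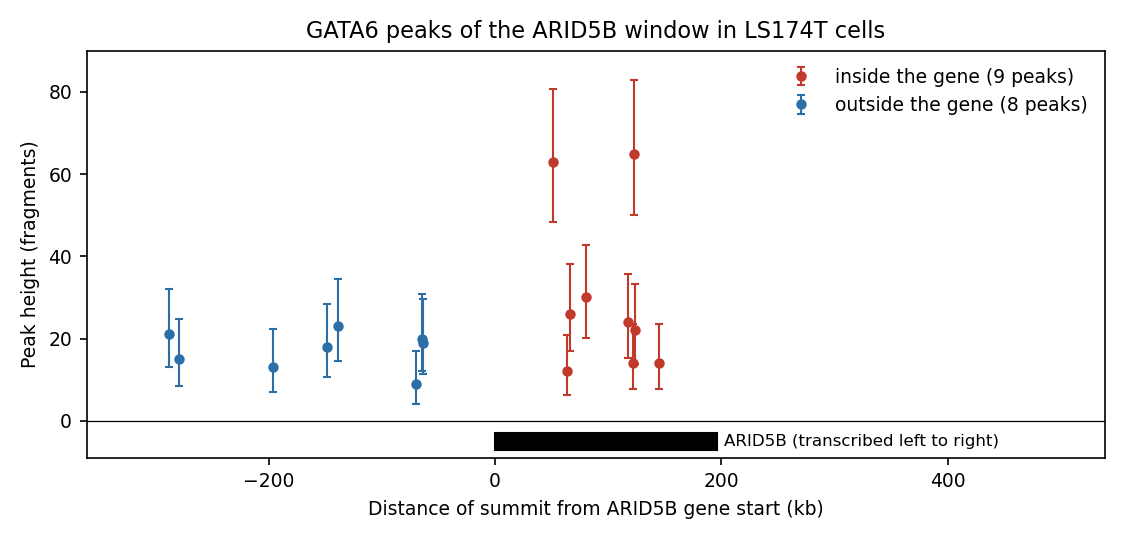
Height in fragments of each GATA6 peak against the distance of its summit from the ARID5B gene start in kb, with exact 95% Poisson intervals as bars and the gene as a black box. The 9 peaks inside the gene (red) lie between 51.2 and 144.8 kb, the 8 peaks outside (blue) all lie before the gene start, and 0 peaks follow the gene end.

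The tallest pair of peaks stood inside the gene. The pileup, a coverage signal deposited as whole fragments at the summit, is called the height here. The peak from 63784072 to 63784462, whose summit lay 123.2 kb past the gene start, had a height of 65 fragments (95% Poisson interval 50.2 to 82.8). The peak from 63711849 to 63712410, at 51.2 kb, had a height of 63 (48.4 to 80.6). They ranked 6 and 7 in height among the 373 peaks of chromosome 10 and 45 and 56 among the 7562 peaks of chromosomes 1 to 22 and X. Their intervals overlapped each other and no other peak's of the window.

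Height and fold ordered these peaks differently. The fold is the authors' own ratio of height over a local background. At the peak of height 63 it was 45.11, rank 14 on chromosome 10, with a −log10 p of 80.41, rank 5. At the peak of height 65 it was 21.72, rank 89, with a −log10 p of 62.59, rank 11. The local background, computed as height over fold, was 1.40 fragments at the first and 2.99 at the second. With 562 bp, the peak of height 63 was also the longest of the window, rank 5 on chromosome 10, while that of height 65 was 391 bp long.

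The remaining 7 peaks inside the gene ran from 12 to 30 fragments, with a median of 22 against 16 over chromosomes 1 to 22 and X. In order along the gene, the peak from 63724771 to 63725017 was 12 fragments high, with a fold of 14.62. Next to it, the peak from 63727005 to 63727332 was 26 fragments high at a fold of 26.06. The peak from 63741207 to 63741661 was 30 fragments high (20.2 to 42.8), with a fold of 15.04. Of these, the last came closest to the tall pair, and its interval still ended below theirs.

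Around the taller of the pair stood a group of 4 peaks, whose summits spanned 6.99 kb. It opened with the peak from 63777991 to 63778364, 24 fragments high with a fold of 32.73, the second-largest fold of the window. The peak from 63782652 to 63782867 reached 14 fragments and a fold of 13.15. After the tall peak came that from 63784988 to 63785272, 22 fragments high at a fold of 12.6. Their summits lay 4579, 1498 and 917 bp apart, so the tall peak had a lower one close by on either side. With neighbours linked at up to 10 kb, the group was 1 of 2 groups of 4 peaks on chromosome 10. Over chromosomes 1 to 22 and X there were 35 groups of at least 4. The other on chromosome 10 lay from 111753735 to 111763393, with heights from 11 to 45. The last peak inside ARID5B stood alone, from 63805701 to 63805938, 14 fragments high at a fold of 10.02.

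Outside the gene, the 3 peaks nearest its start formed a close group from 63590792 to 63597274. Their heights were 9, 20 and 19 fragments, and their folds 7.36, 10.02 and 15.33. The peak of height 9, 70.2 kb before the gene start, was the lowest of the window and had a 95% Poisson interval of 4.12 to 17.1. The other two lay 671 bp apart, the smallest distance between summits of the window. None reached the median height of the peaks inside the gene.

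The farther peaks before the gene start came in a pair, a single peak and another pair. The pair from 63512557 to 63521974 had heights of 18 and 23 and folds of 9.02 and 5.76. The height of 23 (14.6 to 34.5) was the greatest outside the gene, and the fold beside it was the smallest of the window. The single peak, from 63464824 to 63464999, was 13 fragments high, with a fold of 12.41. The pair from 63372240 to 63381724, the farthest from the gene, had heights of 21 and 15 and folds of 10.52 and 12.27. Within each pair the summits lay 9.11 and 9.09 kb apart.

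Peaks inside the gene were taller, longer and higher in fold by their medians, with overlapping ranges. Heights ran from 12 to 65 with a median of 24 inside, against 9 to 23 with a median of 18.5 outside. Lengths ran from 216 to 562 bp with a median of 328 inside, against 175 to 368 bp with a median of 232.5 outside. Folds ran from 10.02 to 45.11 with a median of 15.04 inside, and from 5.76 to 15.33 with a median of 10.27 outside. Without the tall pair, the median height inside was 22 and the difference 3.5 fragments in place of 5.5. Whether the medians differ was not tested.

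Local background went the other way by its median, 1.40 fragments inside, against 1.62 outside. The ranges were 0.733 to 2.99 inside and 1.05 to 3.99 outside. Among peaks with a fold of at least 10 this difference was +0.157 in place of −0.221. That filter kept 9 of 9 peaks inside and 5 of 8 outside, and the fold itself divides by the background. The change of sign therefore cannot show whether the difference is stable. A lower background raises the fold by construction, so fold and background are not separate results. The highest background of the window, 3.99, belonged to the peak with its smallest fold.

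**Figure D2:**
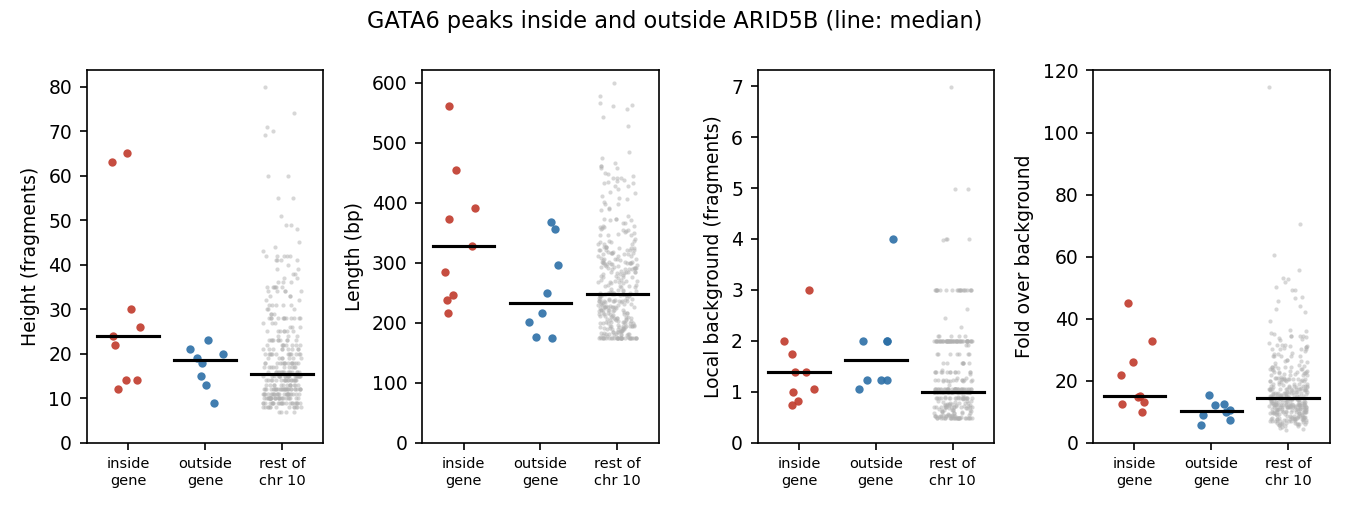
Height in fragments, length in bp, local background in fragments and fold for each GATA6 peak inside ARID5B (red, 9 peaks), outside it in the window (blue, 8 peaks) and on the rest of chromosome 10 (grey, 356 peaks), with horizontal lines at the medians. The 2 peaks of height 63 and 65 stand apart inside the gene, and the ranges overlap in every panel.

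All 9 peaks inside the gene reached a fold of 10, and 5 of 8 outside did. The window's count of 14 of 17 (82.4%) lay near the share over chromosomes 1 to 22 and X, 76.5%. A height of 23 fragments or more was found at 5 of 9 peaks inside and 1 of 8 outside. That made 6 of 17 (35.3%, exact Clopper-Pearson interval 14.2 to 61.7%) in the window, beside 25.1% of the list. The interval of the window's share included that of the list for both counts.

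The local background at these peaks could be read as small numbers of control fragments. The values fell on multiples of 0.998 fragments, which is 1 control fragment under the narrowest peak width of 175 bp, or on the finer steps that 1 fragment gives in 1 kb or 10 kb. No source names the control, so this reading comes from the values, which were matched to a step within 0.0005 of its size plus the rounding error of the fold. At the peak of height 65 the background stood for 3 control fragments under the peak, at that of height 63 for 8 within 1 kb. The coarsest step that matched was under the peak for 3 peaks inside and 4 outside, 1 kb for 3 inside and 3 outside, and 10 kb for 3 inside and 1 outside. At the floor of 0.489 fragments there were 0 of the 17 peaks, against 26 of the 356 on the rest of chromosome 10.

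Longer peaks were also taller within the locus. Spearman's rho between height and length was 0.84 over the 17 peaks, against 0.70 over the 356 on the rest of chromosome 10. Between height and background it was 0.38 in the window, against 0.52 on the rest. Taken apart, it was 0.50 over the 9 peaks inside the gene and 0.90 over the 8 outside, both above the value for the window. These are descriptions across peaks that share libraries and control, and the background was computed as height over a fold that itself contains height. The summit lay at 35.0 to 63.6% of the length in the 9 peaks inside the gene, and at 18.0 to 46.3% in the 8 outside.

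**Figure D3:**
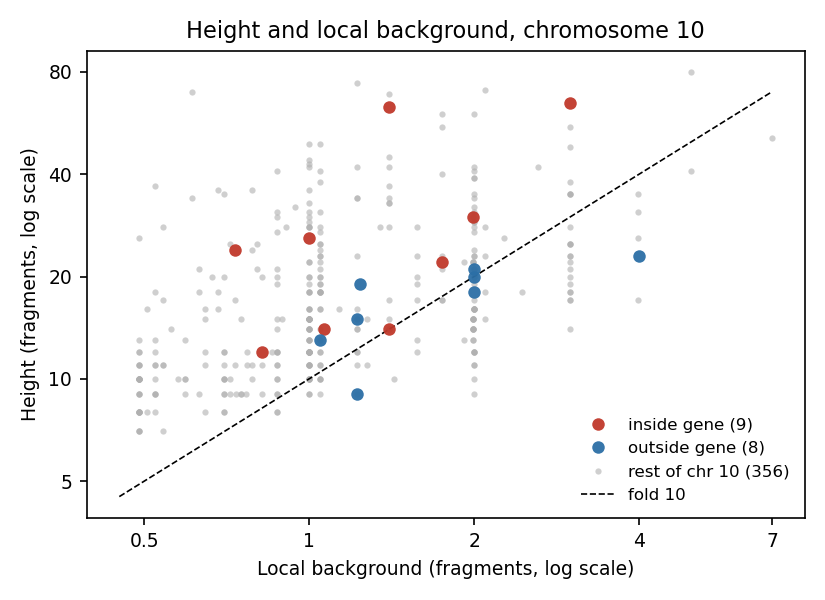
Height against local background, both in fragments on log scales, for the 9 peaks inside ARID5B (red), the 8 outside it (blue) and 356 on the rest of chromosome 10 (grey), with a dashed line at a fold of 10. The 9 peaks inside lie on or above the line, and 3 of the 8 outside lie below it.

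The window held more peaks than any of the other 146 windows of 0.9 Mb into which chromosome 10 was tiled. It had 17, against a median of 2 and a maximum of 10 in the others, of which 35 held 0. Over the chromosome, from first to last summit, 2.82 peaks fell per Mb. These figures include a run of empty windows from 38.1 to 44.4 Mb, and whether reads can be placed there was not examined. The window before it, from 62.4 to 63.3 Mb, had 2 peaks, and the window after it, from 64.2 to 65.1 Mb, had 0. Since the window was chosen with the list in view, its rank is given without a test.

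Stretches without a peak flanked the locus on both sides, and the one after it was the longer. The first peak of the window, 21 fragments high, lay 621.8 kb past the nearest summit before it, at 62750604, where the height was 10. The last peak, 14 fragments high, lay 1666 kb before the nearest summit after it, at 65472072, where the height was 34. Of the 372 gaps between neighbouring summits on chromosome 10, 68 were at least as long as the gap before the locus and 14 at least as long as the gap after it, each count including the gap itself. All 17 peaks fell within 433 kb.

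Spacing within the locus was short. Over its 16 pairs of neighbours the summits were a median of 10.9 kb apart, against 140.1 kb over the chromosome's 372 pairs and at least 16.01 kb in each of the 24 other windows with 5 or more peaks. Inside the gene the median was 8.62 kb and outside it 9.11 kb. Another summit within 10 kb was found for 13 of the 17 peaks (76.5%), 6 inside and 7 outside, beside 27.2% of the list. Spacing follows from the number of peaks in a fixed window, so it is not separate from the count.

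**Figure D4:**
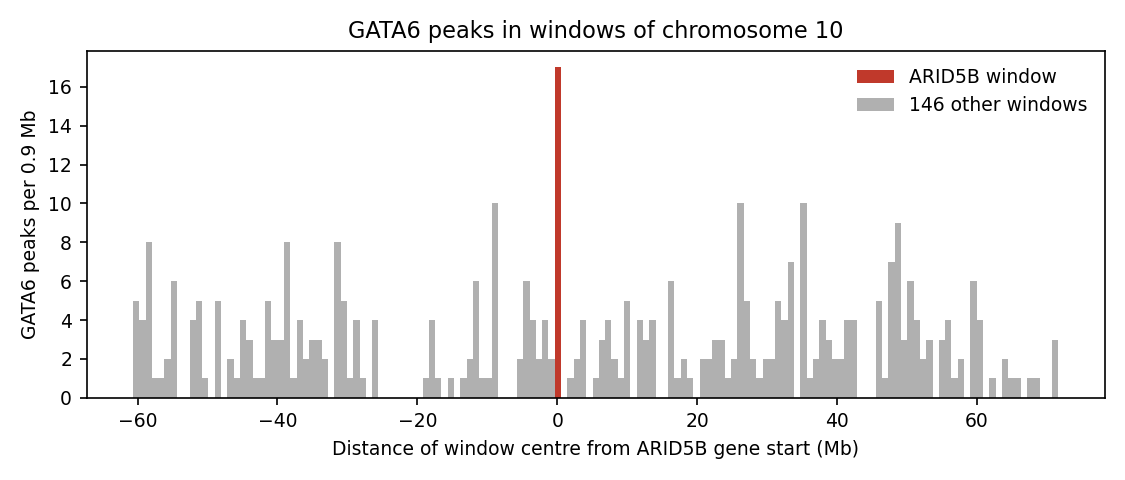
Number of GATA6 peaks in each 0.9 Mb window of chromosome 10 against the distance of the window's centre from the ARID5B gene start in Mb. The ARID5B window (red) has 17 peaks, and the tallest of the 146 other bars (grey) reaches 10.

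In the traits of its peaks the window was within the range of the others. Among the 24 other windows with 5 or more peaks, 8 had a median height as great as its 20 fragments, where they ran from 12 to 25. As many, 8, had a median length as great as its 285 bp. Its highest peak was matched or exceeded in 2 of them. Its median fold of 12.6 was matched or exceeded in 16.

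The local background of the window was on the high side. Its median was 1.40 fragments, against 0.998 at the 356 peaks on the rest of chromosome 10, and 6 of the 24 other windows reached it. Its mean, 1.64, was reached by 5. The part of this background in the number of peaks was not tested.

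The next densest windows of chromosome 10 differed in how their 10 peaks each were laid out. They lay from 54.3 to 55.2, from 89.4 to 90.3 and from 98.4 to 99.3 Mb. The ARID5B window spread its peaks over 433 kb, against 510, 764 and 750 kb in these. Its highest peak had 65 fragments, against 34, 25 and 42. Its median background of 1.40 lay within theirs of 1.09, 1.99 and 1.48. Median heights were 20 fragments against 15, 18.5 and 17, and these differences were not tested. The maxima were not matched for the number of peaks, with which a maximum can rise. Some windows with fewer peaks had a higher maximum. That from 59.7 to 60.6 Mb, with 4 peaks, reached 80 fragments. Those from 44.4 to 45.3 and from 46.2 to 47.1 Mb, with 1 peak each, reached 70 and 71.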

How the data were processed

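LS174T ChIP-seq comprised 7 libraries, 3 of them for GATA6. Per the submitters' processing notes, the GATA6 and input libraries involved CASAVA 1.8 and BWA 0.5.9-r16, with hg19. The peak caller, its settings, its control and any pooling of libraries were not given in those notes, the labels or the header. Per the file headers, the list holds for each peak its position, length, pileup (a coverage signal), a fold (a ratio over local background) and p-value and q-value as −log10. All scores are the authors' deposited values, and they describe or rank peaks within this list only.

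Local background was computed as pileup over fold. Chromosomes 1 to 22 and X entered, 7562 of 7568 peaks. Windows of 0.9 Mb were tiled both ways from 63.3 Mb on chromosome 10. Medians of other windows needed at least 5 peaks. Poisson and binomial intervals are exact, at 95%, and cover counting error only. Window counting and joining were tested on simulated positions. Python 3.11.15, pandas 2.3.3 and scipy 1.17.1 were used. Every peak of the window is named. Members, bounds and comparisons were chosen with earlier results of these data known. RefSeq gene order and promoter stretches came from GRCh38.p14, and no hg19 gene list or hg19 sequence was used.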

Additional observations from a re-analysis of the deposited data

How the results depend on the processing

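Of 54 values recomputed under other settings, 47 moved by less than a factor of 1.5 or stayed within their binomial interval. Some of these could not move. No peak crossed a gene bound, so counting any overlap as inside changed nothing. Likewise no peak lay in the 10 kb before the gene start, so adding these to the gene changed only the density ratio, to 3.79. The ARID5B window kept 14 peaks at a fold of at least 10, 16 at a −log10 q of at least 5, and 15 with summits within 1 kb joined. It exceeded every other chromosome 10 window in these, in windows starting every 0.1 Mb, where those that did not overlap it reached 12, and in windows of 0.5 Mb, with 14 against at most 8. The density ratio of gene over outside, 4.04, was 6.47 at a fold of at least 10 and 2.07 against the stretch before the gene alone. The difference in median height, 5.5 fragments, was 3.5 without the 2 highest peaks. The difference in median background, −0.221 fragments, reversed to 0.157 at a fold of at least 10. That filter uses a ratio divided by this same background, and it dropped peaks only outside the gene. The difference was −0.599 at a −log10 q of at least 5, −0.765 with joined summits and −0.379 as means. The cause of the other shifts was not tested. The settings with the stretch before the gene alone, without the 2 highest peaks and with means were added after the data were seen. No paired analysis was possible because the list holds no value per library, and for the same reason no library could be left out. Depth is unknown, and single heights are loose, since the 95% Poisson interval around 20 fragments runs from 12.2 to 30.9.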

Other observations

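Over chromosomes 1 to 22 and X, 6 of 3239 other windows of 0.9 Mb (0.185%) held at least as many GATA6 peaks as the 17 of the ARID5B window. The other chromosomes were tiled on a fixed grid from their start, while the ARID5B window was placed with the list in view. A fixed grid can split a cluster of peaks between windows, so this share depends on the grid. The 6 windows lay on chromosome 1 from 168.3 to 169.2 Mb (24 peaks), chromosome 17 from 63 to 63.9 Mb (23), chromosome 13 from 73.8 to 74.7 Mb (19), and at 3 places on chromosome 8 (19, 19 and 18). The highest peak had 65 fragments in the ARID5B window, and from 31 to 65 in these 6. Median local background was 1.40 fragments in the ARID5B window, and from 1.02 to 2.18 in these 6.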
